A study of Arabidopsis thaliana with 8 samples.

Results

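AT3G49340 and 8 better-known genes for papain-like cysteine proteases were followed in leaf RNA of Arabidopsis thaliana. The 9 genes were chosen by their locus identifiers, namely AT3G49340, RD21A (AT1G47128), RD21B (AT5G43060), RD19A (AT4G39090), XCP1 (AT4G35350), XCP2 (AT1G20850), CEP1 (AT5G50260), AALP (AT5G60360) and CTB3 (AT4G01610). All 9 were among the 21960 genes measured. Leaves came from 4-week-old plants in long days (16 h of light, 8 h of darkness). Col-0 is the wild type, and every other genotype is in this background. The co-SAIL plants carry a T-DNA insertion in the flowering regulator CONSTANS (CO). The 35S::miP1a and 35S::miP1b plants express a FLAG-tagged microProtein from the viral 35S promoter, which is active in most tissues. Each of the 4 genotypes had 2 libraries. They are called technical replicates in the description of the series. The p-values rest on counting error and on a spread between these libraries that was fitted as a shared value for all genes. A gene's own spread does not enter its p-value, and variation beyond these libraries is not covered. Were the libraries technical replicates, genotype and plant pool cannot be told apart.

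Papain-like cysteine proteases are made as inactive precursors that pass through the secretory pathway to the vacuole, to lytic compartments or to the cell exterior. An N-terminal prodomain blocks the active site until it is cut off, and a cysteine, a histidine and an asparagine then carry out the cleavage of peptide bonds. In leaves they degrade proteins during senescence and drought, act in immunity against pathogens that secrete inhibitors of them, and in xylem and tapetum they clear the contents of dying cells. Cystatins inhibit the mature enzymes.

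AT3G49340 is annotated as a cysteine proteinase superfamily protein. In TAIR10.1 it lies on chromosome 3 from 18293173 to 18294621 on the minus strand, has 2 exons and encodes 341 residues. The stretch around the catalytic cysteine is shown for all 9 genes because it defines the family. In the codon before that cysteine it also sets AT3G49340 apart from the other 8. The sequences are 27 bases of coding strand from the RefSeq annotation of TAIR10.1, with introns removed, and the capitals mark the codon of the catalytic cysteine.
AT3G49340: caatgtggatgtTGCtgggctttctcg
RD21A: ggttgcgggagtTGTtgggcgttttca
RD21B: agctgtgggagtTGTtgggcattctca
RD19A: tcttgcggctctTGCtggagtttcagc
XCP1: caatgtggtagcTGTtgggcattttca
XCP2: tcttgtggaagtTGTtgggcgttttcg
CEP1: caatgcgggagtTGTtgggcgttttca
AALP: ggttgtggatctTGCtggacattcagc
CTB3: cattgtggttctTGCtgggcatttggt

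The codon before the catalytic cysteine is tgt in AT3G49340, itself a cysteine codon, whereas in the other 8 genes it is a serine codon. The senescence protease SAG12, AT2G34080 and AT1G29090 also have tgt there, whereas AT2G27420, AT1G29080 and AT1G06260 have a glycine codon. The AT3G49340 protein is 34.2% identical to CTB3, a cathepsin B-like enzyme, 37.2% to RD19A and 37.5% to AALP. Its identity to the remaining 5 lies between 43.5% for RD21B and 46.7% for XCP2. Among 22 further family genes the nearest is AT2G27420, at 73.6%. The pair RD21A and RD21B shares 79.4% of residues and the pair XCP1 and XCP2 shares 70.4%. RD21A and RD21B continue for 301 residues after the catalytic cysteine, against 190 in AT3G49340, and their last stretch is the cysteine-rich granulin domain, with 15 cysteines in the final 150 residues. CEP1 ends in an endoplasmic reticulum retention signal. No coding window of 40 bases in AT3G49340 occurs in another gene, so reads from its coding sequence are not shared with AT2G27420 by exact matches. Untranslated exon sequence and matches with mismatches were not examined.

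The level of a gene is given as reads summed over the 2 libraries of a genotype, and in counts-per-million units (CPM). These reads were recovered from the deposited fold changes and mean abundances. The effective reads numbered 34528907 in Col-0, 31599570 in co-SAIL, 33523489 in 35S::miP1a and 35777019 in 35S::miP1b. A count of 3 reads, taken as the floor, equals 0.0839 to 0.0949 CPM. Values of single libraries were not analysed here, so intervals on levels are exact Poisson intervals at 95%, which cover counting error only. The labels were checked on the transgenes. miP1a (AT3G21890) had 125309 reads in 35S::miP1a and 13 to 25 elsewhere, and miP1b (AT4G15248) had 35462 reads in 35S::miP1b and 1 to 4 elsewhere. CO had 170 to 228 reads in every genotype, co-SAIL included, so its reads do not mark the insertion. FT, the flowering gene that CO activates, had 333 reads in Col-0, 19 in co-SAIL, 0 in 35S::miP1a and 1 in 35S::miP1b.

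AT3G49340 was lower than in Col-0 in all 3 genotypes. It had 55 reads in Col-0, or 1.59 CPM (interval 1.2 to 2.07). In co-SAIL it had 3 reads, or 0.0949 CPM (0.0196 to 0.277). In 35S::miP1a it had 12 reads, or 0.356 CPM (0.185 to 0.625), and in 35S::miP1b 6 reads, or 0.168 CPM (0.0615 to 0.365). The interval of Col-0 overlaps with none of the other 3, and the intervals of those 3 overlap with each other.

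**Figure D1:**
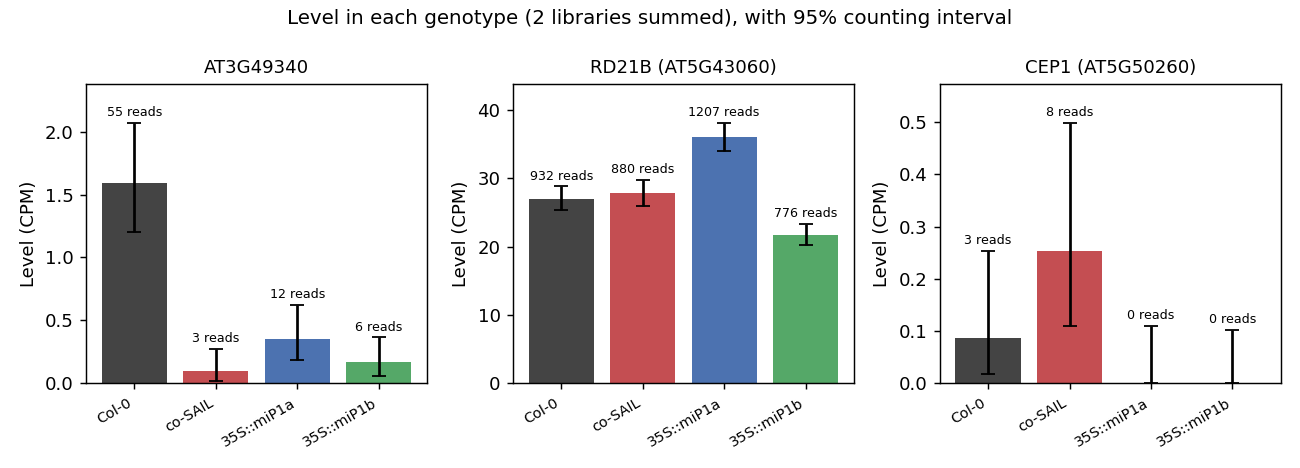
Level in CPM (vertical axis, from 0) of AT3G49340, RD21B and CEP1 in each genotype. Bars are the sum of 2 libraries, error bars 95% counting intervals and labels the reads. AT3G49340 is highest in Col-0 (55 reads against 3 to 12), RD21B is highest in 35S::miP1a and lowest in 35S::miP1b, and CEP1 has 8 reads at most.

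Changes were tested with a negative binomial likelihood ratio test using the dispersion of the deposited fit, with Benjamini-Hochberg adjustment over all 21960 genes. In co-SAIL AT3G49340 was lower by a ratio of 16.7 (counting interval 5.45 to 83.8), a log2 change of -4.06 (SE 0.87, adjusted p = 5.8e-09 by the likelihood ratio test). The 3 reads behind this ratio are at the floor. In 35S::miP1b it was 9.46-fold lower, with a log2 change of -3.24 (SE 0.64, adjusted p = 1.5e-08). In 35S::miP1a it was 4.45-fold lower, with a log2 change of -2.15 (SE 0.49, adjusted p = 5.1e-05). With a dispersion of 0.16, a coefficient of variation of 40% between libraries, the adjusted p rose to 0.0138 in co-SAIL, 0.00933 in 35S::miP1b and 0.283 in 35S::miP1a. The 3 comparisons share the Col-0 libraries, so the 55 reads of Col-0 enter each of them.

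The call applied here needs a fold change of at least 4 and an FDR below 0.001. By it, 1 of the 9 genes was called in co-SAIL, AT3G49340, against 0.246% of all genes. The same single gene was called in 35S::miP1a, against 0.874% of all genes, and in 35S::miP1b, against 1.49%. At an FDR below 0.05 with no minimum fold change it was again 1 of 9 in each comparison, against 3.11% of all genes in co-SAIL, 9.75% in 35S::miP1a and 12.6% in 35S::miP1b. The paper had already named AT3G49340 as lower in all 3 genotypes, where it describes these libraries and qRT-PCR of candidate genes. It reports that the qRT-PCR largely bore out the sequencing. The call of AT3G49340 was therefore known when the 9 genes were listed, and 1 of 9 is no measure of an excess. By log2 change AT3G49340 ranked 2 of the 43 genes called lower in co-SAIL, 60 of 68 in 35S::miP1a and 84 of 306 in 35S::miP1b. In all, 5 genes, AT3G49340 among them, were called lower in all 3 comparisons. Among the 599 genes with 45 to 65 reads in Col-0, those called lower numbered 7 in co-SAIL, 15 in 35S::miP1a and 37 in 35S::miP1b, AT3G49340 included.

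The order of AT3G49340 levels was Col-0, 35S::miP1a, 35S::miP1b and co-SAIL. Neighbours below Col-0 in this order were not separated. Between 35S::miP1b and 35S::miP1a the log2 difference was -1.09 (95% interval -2.54 to 0.36, adjusted p = 0.515 by the likelihood ratio test). Between 35S::miP1b and co-SAIL it was 0.82 (-1.21 to 2.85, adjusted p = 0.741). For the ends of the order, 35S::miP1a against co-SAIL, the ratio was 3.75 (counting interval 1.02 to 20.8, adjusted p = 0.172).

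**Figure D2:**
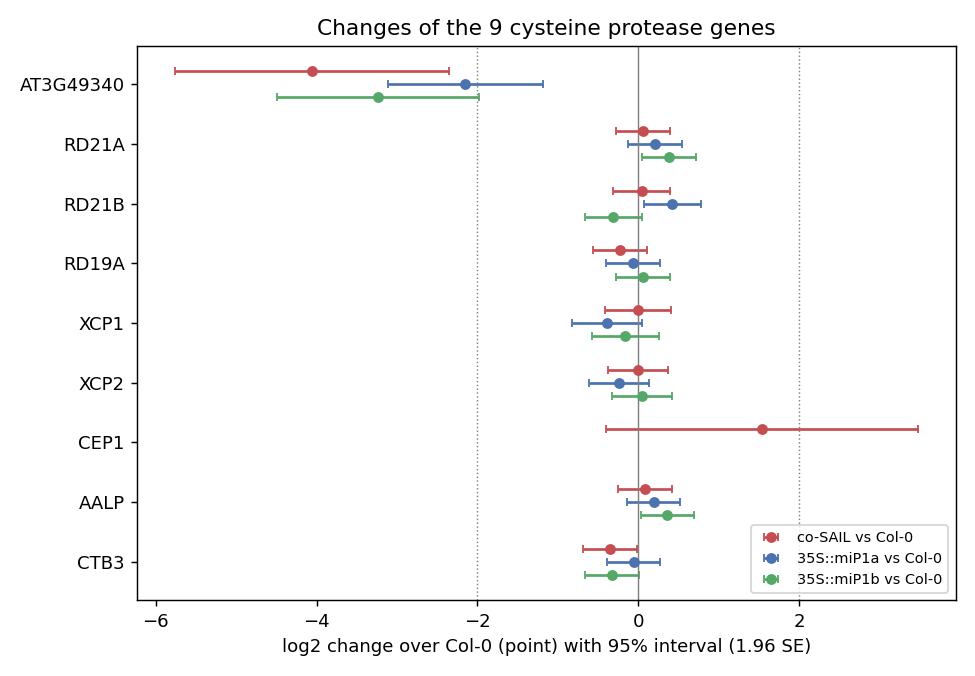
log2 change over Col-0 (horizontal axis) of the 9 genes in co-SAIL, 35S::miP1a and 35S::miP1b, with 95% intervals from the SE and dotted lines at a 4-fold change. AT3G49340 lies at -4.06, -2.15 and -3.24, while 7 genes lie between -0.39 and 0.42. CEP1 is drawn only in co-SAIL because it had 0 reads in both microProtein lines.

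RD21A, RD19A and AALP are the abundant vacuolar proteases of the leaf. RD21A is a drought-induced protease that also acts in immunity, and it had 16947 reads in Col-0, 16209 in co-SAIL, 19085 in 35S::miP1a and 22872 in 35S::miP1b (491, 513, 569 and 639 CPM). Its log2 change in 35S::miP1b was 0.38 (SE 0.17, adjusted p = 0.116). RD19A, also named for its induction by drought, had 16040, 12552, 14794 and 17323 reads in the same order (465, 397, 441 and 484 CPM). AALP, an aleurain-like aminopeptidase used as a vacuolar marker, had 11376, 10984, 12582 and 15115 reads (329, 348, 375 and 422 CPM), with a log2 change of 0.36 in 35S::miP1b (adjusted p = 0.148). RD21A, RD19A and AALP all had their highest level in 35S::miP1b, as AT4G16190 did, and no change of these genes over Col-0 passed the test.

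RD21B, the close paralog of RD21A, had 932 reads in Col-0, 880 in co-SAIL, 1207 in 35S::miP1a and 776 in 35S::miP1b, or 27, 27.8, 36 and 21.7 CPM. The microProtein lines lay on opposite sides of Col-0, with log2 changes of 0.42 in 35S::miP1a (adjusted p = 0.128) and -0.31 in 35S::miP1b (adjusted p = 0.269), neither past the threshold. Compared directly, RD21B was 1.66-fold lower in 35S::miP1b than in 35S::miP1a, a log2 difference of -0.73 (SE 0.18, adjusted p = 0.00135). It was the 1 gene of the 9 past an FDR of 0.05 in that comparison, against 6.5% of all genes. The adjusted p was 0.257 with a dispersion of 0.04 (a coefficient of variation of 20%) and 1 with 0.16. RD21A differed between the same lines by 0.17 in log2 (interval -0.16 to 0.49).

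XCP1 and XCP2 degrade the cell contents of xylem vessels as they die. XCP1 had 246 reads in Col-0, 224 in co-SAIL, 183 in 35S::miP1a and 229 in 35S::miP1b (7.13, 7.1, 5.45 and 6.4 CPM). XCP2 had 579, 527, 478 and 621 reads (16.8, 16.7, 14.3 and 17.4 CPM). Both were lowest in 35S::miP1a, with log2 changes of -0.39 (SE 0.22) for XCP1 and -0.24 (SE 0.19) for XCP2 that did not pass the test. The summed level of 8 other xylem and secondary wall markers was 22 to 24.5 CPM over the 4 genotypes, and 0 of the 8 passed an FDR of 0.05 in any comparison with Col-0. Within this list BFN1 and MC9, a nuclease and a metacaspase of dying xylem cells, had their lowest counts in 35S::miP1a. The other markers of the list had log2 changes over Col-0 from -0.05 for MYB46 to 0.27 for IRX1 in that line. The median of the 8 was -0.01. BFN1 had 29, 26, 11 and 38 reads (log2 change -1.35 in 35S::miP1a, adjusted p = 0.0734), and MC9 had 78, 89, 44 and 76 (-0.78, adjusted p = 0.0985). MC9 was lower in 35S::miP1a than in co-SAIL (log2 difference -1.10, adjusted p = 0.00742) and BFN1 higher in 35S::miP1b than in 35S::miP1a (1.69, adjusted p = 0.0104), neither past the threshold with a dispersion of 0.04 (0.111 and 0.0556). Their part in the XCP1 and XCP2 levels was not tested. XCP1 overlaps AT4G35360 on the opposite strand, and since the library kit does not mark strand, reads from the overlap cannot be told apart.

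CTB3, a cathepsin B-like protease with roles in programmed cell death and immunity, had 2268 reads in Col-0, 1629 in co-SAIL, 2110 in 35S::miP1a and 1866 in 35S::miP1b (65.7, 51.5, 62.9 and 52.2 CPM). Its log2 change was -0.35 in co-SAIL (interval -0.69 to -0.01, adjusted p = 0.376) and -0.33 in 35S::miP1b (-0.67 to 0.00). Over the 7 genes other than AT3G49340 and CEP1, the log2 changes ran from -0.35 to 0.08 in co-SAIL, from -0.39 to 0.42 in 35S::miP1a and from -0.33 to 0.38 in 35S::miP1b. Their lowest adjusted p-values by the likelihood ratio test were 0.376, 0.128 and 0.116. Before adjustment, the genes of these 7 with p below 0.05 numbered 1, 1 and 2. Standard errors were 0.17 to 0.22.

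CEP1, a protease of the dying tapetum in anthers, was barely detected. It had 3 reads in Col-0, 8 in co-SAIL and 0 in each microProtein line, where the upper limits of the 95% counting intervals are 0.11 CPM for 35S::miP1a and 0.103 CPM for 35S::miP1b. Co-SAIL and Col-0 were not separated, with a ratio of 2.9 (counting interval 0.699 to 17.1). With the 0 reads of a line set to the floor of 3, the 8 reads of co-SAIL gave CEP1 a level 2.83-fold lower in 35S::miP1a than in co-SAIL (adjusted p = 0.0135 by the likelihood ratio test) and 3.02-fold lower in 35S::miP1b (adjusted p = 0.0121). These ratios are set by the floor and are not lower bounds. With the counting error of both counts the lower limits of the ratios were 1.81 and 1.93. It was the 1 gene of the 9 past an FDR of 0.05 in these comparisons, against 8.28% and 7.85% of all genes. Both results rest on the 8 reads of co-SAIL, and with a dispersion of 0.16 the adjusted p was 0.179 and 0.194. The 95% intervals from the SE of these log2 changes were -5.64 to 2.63 and -5.73 to 2.54, and both include 0. The p-values come from a chi-square approximation, which is rough for 0 against 8 reads. Of 6 tapetum markers 3 were listed, together at no more than 0.179 CPM in any genotype.

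Levels of different genes were compared per kilobase of annotated exon. In Col-0 RD19A stood at 276 CPM per kb, RD21A at 256, AALP at 184, CTB3 at 40.3, RD21B at 13.2, XCP2 at 12.2, XCP1 at 5.04, AT3G49340 at 1.27 and CEP1 at 0.0552. Within this order RD19A and RD21A, and RD21B and XCP2, did not differ beyond the 95% interval of their SE, whereas every other neighbouring pair did. RD21A was above RD19A in the other 3 genotypes, by less than that margin each time. RD21B was above XCP2 by 0.77 in log2 (SE 0.18) in 35S::miP1a, and below it by 0.25 (SE 0.18) in 35S::miP1b. Of 31 family genes listed, 24 were in the tables. RD19A, RD21A and AALP together made up 66.3%, 66.7%, 66.3% and 68% of the family's level per kb in Col-0, co-SAIL, 35S::miP1a and 35S::miP1b. AT3G49340 made up 0.118% in Col-0, 0.00729% in co-SAIL, 0.0247% in 35S::miP1a and 0.0107% in 35S::miP1b, and its rank among the 24 was 17, 21, 19 and 20.

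**Figure D3:**
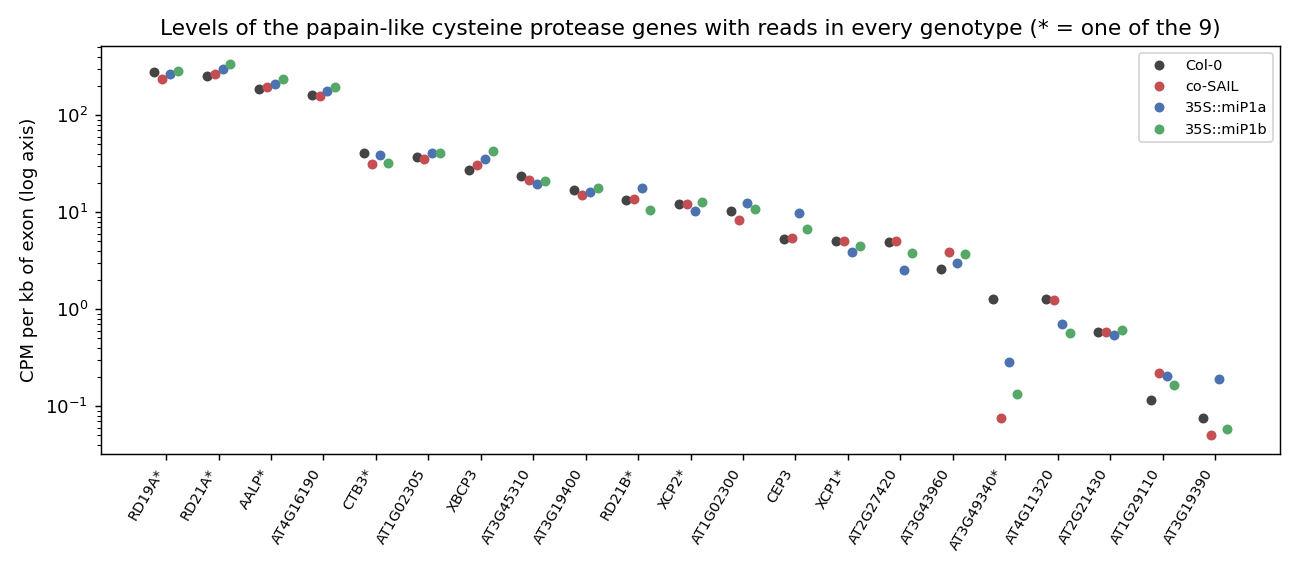
Level per kb of exon (CPM per kb, log axis) of the family genes with reads in every genotype, ordered by their level in Col-0. Points are genotypes and asterisks mark genes among the 9. AT3G49340 falls from 1.27 CPM per kb in Col-0 to between 0.0763 and 0.286, while the most abundant genes hardly move on this scale.

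The other family genes give the background for AT3G49340. Of the 22 listed, 15 were in the tables and 0 were called in any comparison with Col-0. At an FDR below 0.05, 0 passed in co-SAIL, 2 were lower and 1 higher in 35S::miP1a, and 1 was lower and 1 higher in 35S::miP1b. Their median log2 change was -0.02, 0.12 and 0.06, beside 0.03, 0.03 and -0.05 over all genes. AT2G27420, the nearest relative, had 233 reads in Col-0, 218 in co-SAIL, 117 in 35S::miP1a and 183 in 35S::miP1b. It fell 1.94-fold in 35S::miP1a (log2 change -0.95, SE 0.23, adjusted p = 0.00111), whereas its change was 0.03 (SE 0.21) in co-SAIL, where AT3G49340 had its lowest count. Its level in 35S::miP1a was also 1.98-fold below co-SAIL (adjusted p = 7.6e-04). With a dispersion of 0.04 these calls were lost (adjusted p = 0.104 and 0.0815).

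CEP3, like CEP1 a protease with an endoplasmic reticulum retention signal, had 295, 277, 538 and 388 reads. It rose 1.88-fold in 35S::miP1a (log2 change 0.91, SE 0.20, adjusted p = 1.4e-04 by the likelihood ratio test). AT4G11320 had 102, 91, 55 and 47 reads, and was lower in 35S::miP1a (log2 change -0.84, adjusted p = 0.0404) and in 35S::miP1b (-1.16, adjusted p = 0.00178). Of its coding windows of 40 bases, 2.79% also occur in other genes, so part of its reads could be split with a paralog. The calls of CEP3 and AT4G11320 were lost with a dispersion of 0.04, at an adjusted p of 0.085 for CEP3 and of 0.296 and 0.0519 for AT4G11320. At that dispersion 0 of the 15 genes passed an FDR of 0.05 in any comparison with Col-0.

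**Figure D4:**
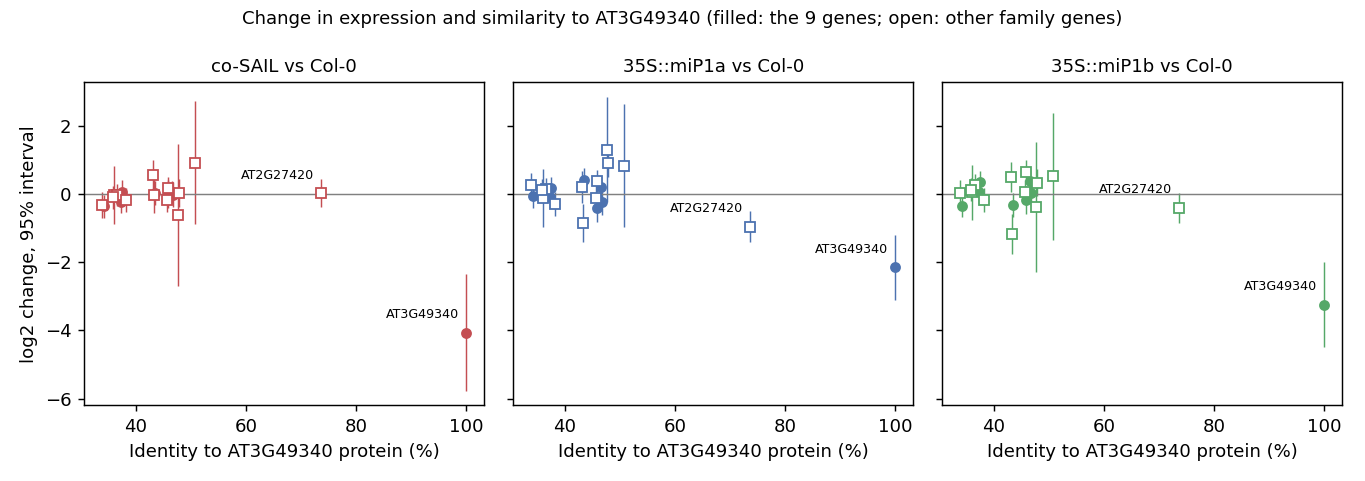
log2 change over Col-0 (vertical axis, 95% intervals) against percent identity to the AT3G49340 protein (horizontal axis) for the family genes with more than 3 reads in a compared genotype, CEP1 left out. Filled points are genes among the 9 and open squares other family genes. AT2G27420, at 73.6% identity, lies at 0.03 in co-SAIL and at -0.95 in 35S::miP1a.

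Genes that act on these proteases were also examined. All 7 cystatins were measured, and 0 passed an FDR of 0.05 in any comparison with Col-0. CYS1 had 3184 reads in Col-0, 2401 in co-SAIL, 2567 in 35S::miP1a and 2754 in 35S::miP1b. Of 4 listed inhibitors, chaperones and sorting factors, 3 were in the tables. SERPIN1, an inhibitor of RD21A, had 2065, 1845, 1695 and 1972 reads, and the vacuolar sorting receptor gene VSR1 had 2972, 2954, 3241 and 3577, with neither past the threshold. PDIL1-1, a protein disulfide isomerase that binds RD21A on its way to the vacuole, had 12313, 7898, 7714 and 5210 reads. It fell 1.55-fold in 35S::miP1a (log2 change -0.63, SE 0.17, adjusted p = 0.00384) and 2.45-fold in 35S::miP1b (-1.29, SE 0.17, adjusted p = 3.1e-12), while its change of -0.51 in co-SAIL had an adjusted p of 0.0658. With a dispersion of 0.04 the adjusted p was 0.335 and 6.0e-04, and with 0.16 neither call held (1 and 0.595). Among the 4 vacuolar processing enzymes, which cut vacuolar precursors, 0 passed in any comparison with Col-0. The gamma enzyme (GAMMA-VPE), the abundant one in leaves, had 1947, 1944, 2214 and 1547 reads, and its level in 35S::miP1b was below that in 35S::miP1a (log2 difference -0.61, adjusted p = 0.0091 by the likelihood ratio test) and co-SAIL (-0.51, adjusted p = 0.0445). Both were lost with a dispersion of 0.04 (0.468 and 0.606).

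Markers of defence and senescence also differed between these genotypes, not always in the direction of AT3G49340. Of 7 salicylic acid and defence markers, 6 were lower in co-SAIL at an FDR below 0.05, 3 were lower and 1 higher in 35S::miP1a, and 7 were lower in 35S::miP1b. Their summed level was 1152 CPM in Col-0, 563 in co-SAIL, 1777 in 35S::miP1a and 260 in 35S::miP1b. BGL2, a glucanase gene with 12438, 3255, 36048 and 1464 reads, carried the higher sum in 35S::miP1a, and the other 6 summed to 792, 460, 701 and 219 CPM. With a dispersion of 0.16, 0 of the 7 passed in co-SAIL and in 35S::miP1a, and 3 in 35S::miP1b. PR1 had 4748, 918, 3193 and 4 reads, and the receptor kinase gene FRK1 had 135, 26, 42 and 5. Of 6 senescence markers 5 were in the tables, of which 2 were lower and 1 higher in co-SAIL, 2 were higher in 35S::miP1a and 2 were lower in 35S::miP1b at an FDR below 0.05. In co-SAIL SAG13 and WRKY53 were lower and NAC6 was higher (log2 changes -1.07, -0.75 and 0.99), and none of these 3 passed with a dispersion of 0.04. SAG13 had 138, 60, 700 and 5 reads, so in 35S::miP1a it was higher than in Col-0 (log2 change 2.39, adjusted p = 9.0e-27 by the likelihood ratio test) where AT3G49340 was lower. The 8 photosynthesis markers of leaf tissue summed to 36834 to 42598 CPM. Of these, 2 were higher in 35S::miP1a at an FDR below 0.05, CAB3 (log2 change 0.86) and LHCA1 (0.55), and 0 passed in the other comparisons with Col-0 or with a dispersion of 0.04. In bulk leaf RNA, fewer cells expressing AT3G49340 and less RNA per cell cannot be told apart, and the part of the defence state of the plants in its levels was not tested.

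The genes most like AT3G49340 were those with the smallest Euclidean distance over the 3 log2 changes, among 19187 other genes with at least 20 reads in total. The nearest was ERF53 (AT2G20880), a transcription factor gene, with 141 reads in Col-0, 17 in co-SAIL, 18 in 35S::miP1a and 13 in 35S::miP1b (distance 1.41). AT5G52390 had 25, 3, 10 and 1 reads (distance 1.43), and AT1G26410 had 22, 0, 3 and 0 reads (1.51). AT5G44585 had 55, 9, 15 and 6 reads (1.61), the same count in Col-0 as AT3G49340. ARD3 (AT2G26400) had 25, 0, 12 and 0 reads (1.61). Distances of genes with 3 or fewer reads in a genotype depend on the floor.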

How the data were processed

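Leaf RNA libraries made with the Illumina TruSeq kit were clipped by the authors with Trimmomatic 0.32, mapped to TAIR10 with Bowtie in RobiNA, and fitted with edgeR 2.6.12 under default normalization. The deposited log2 values, made by the authors, give Col-0 relative to each other genotype, and a mean abundance in CPM over all 8 libraries. The deposited score is the authors' likelihood ratio of each comparison. The p-value and FDR columns hold the authors' own comparisons and were not used.

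Counts were not among the values used, so the deposited fold changes and abundances were solved for the reads of each gene in each genotype, with effective totals from the 353 genes with 1 read. The fold changes served for this step only. Of genes with fewer than 20 reads, 100% of values came within 0.1 of whole numbers, and of those with 20 to 100 reads 93.8%. Above this, counts are approximate (44.4% for 100 to 500 reads). A dispersion of 0.0132 per library (a coefficient of variation of 11.5%), 1 value for all genes, was fitted to the deposited likelihood ratios, and recomputed ratios came within 0.05 on the square root scale for 99.9% to 100% of genes.

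The 6 pairs of genotypes were compared with a negative binomial likelihood ratio test on these reads, with Benjamini-Hochberg adjustment over 21960 genes. Counts below 3 reads were set to 3 for fold changes only. The calculation was run on data simulated from the same model with the same dispersion. Such data cannot show the effect of larger or gene-specific variation. Named genes are the 9 members, listed genes past a fold change of 4 and an FDR of 0.001 in a comparison with Col-0 (otherwise the 3 with the smallest p-value, of which only some are printed), and the 5 genes nearest to AT3G49340. Members and lists were chosen with earlier results of these data known. Some further listed genes are named for their level, sequence or direction. Gene models and sequences come from the RefSeq annotation of TAIR10.1. Alternatives were dispersions of 0.04 and 0.16, genes with at least 1 CPM, centring on the median gene with at least 10 CPM, a minimum fold change of 2, and 0.5 reads added in place of the floor. Statistics used SciPy 1.17.1 and NumPy 2.4.6 under Python 3.11.15, tables pandas 2.3.3, protein alignments Biopython 1.88, and plots matplotlib 3.10.9.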

Additional observations from a re-analysis of the deposited data

Results flagged for a closer look

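The members with a tested difference between non-wild-type genotypes were RD21B and CEP1. RD21B differed between 35S::miP1b and 35S::miP1a by -0.73 in log2 (adjusted p = 0.00135 by the likelihood ratio test over all genes), with Col-0 between them. Relative to co-SAIL, CEP1 was lower by 2.83-fold in 35S::miP1a and by 3.02-fold in 35S::miP1b when the 0 reads of each line are set to 3 and the 8 reads of co-SAIL are taken as exact. With the counting error of both counts the lower limits were 1.81 and 1.93. By the same test the RD21B difference was lost with a dispersion of 0.04 (adjusted p = 0.257). Those of CEP1 were lost with 0.16 (adjusted p = 0.179 and 0.194). Of all genes, 6.5% passed an FDR of 0.05 between the microProtein lines. Against co-SAIL 8.28% passed in 35S::miP1a and 7.85% in 35S::miP1b.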

How the results depend on the processing

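No paired analysis was possible because no values of single libraries were analysed here, and for the same reason no library could be left out in turn. Requiring at least 1 CPM removed AT3G49340 and CEP1 from the test, since their mean abundance is below it, so the members called, and those at an FDR below 0.05, came to 0 in every comparison with Col-0, and those at an FDR below 0.05 to 0 for both lines against co-SAIL. With a dispersion of 0.16, 0 members were called in each comparison with Col-0. Those at an FDR below 0.05 were 0 in 35S::miP1a against Col-0 (AT3G49340 stayed at -2.15 with an adjusted p of 0.283) and 0 in all 3 comparisons among the other genotypes. With 0.04, 0 were called in 35S::miP1a against Col-0, where the adjusted p of AT3G49340 was 0.0018, and 0 were past an FDR of 0.05 between 35S::miP1b and 35S::miP1a.

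Over all genes at an FDR below 0.05, dispersions of 0.04 and 0.16 gave 230 and 20 genes in co-SAIL, 678 and 125 in 35S::miP1a, and 987 and 243 in 35S::miP1b, in place of 683, 2141 and 2765. The 54, 192 and 327 genes called became 7, 51 and 88 at a dispersion of 0.16, 28, 93 and 197 with at least 1 CPM, and 196, 537 and 750 with a minimum fold change of 2. In co-SAIL a dispersion of 0.04 gave 32. Of 222 values for members other than AT3G49340, 218 kept their side of the threshold, which for most genes means staying short of it. The other 4 lost the threshold (RD21B between the microProtein lines, at both larger dispersions, and CEP1 against co-SAIL, at 0.16). Direction was compared only for changes past an FDR of 0.05 in the main fit. These were RD21B between the microProtein lines and CEP1 against co-SAIL, and 0 reversed. A larger dispersion leaves the log2 change as it is and can only weaken a call. Adding 0.5 reads in place of the floor moved CEP1 against co-SAIL from -1.50 to -4.17 in 35S::miP1a and from -1.59 to -4.27 in 35S::miP1b, so the size of these fitted changes is set by the treatment of 0 reads. Centring moved the log2 changes of the members by at most 0.034. The 3 to 12 reads of AT3G49340 outside Col-0 limit its fold changes.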
